A study of Mus musculus with 8 samples.

Results

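The genes described here are 38 mouse nuclear receptors other than the Hnf4 pair, listed by symbol and read from a table of 23951 gene symbols by exact match of the name. All 38 were found, and 29 of them passed the filter on low values and were tested. The study sequenced messenger RNA of jejunal crypts from mice in which an activating Braf allele was switched on in the intestinal epithelium, alone or with deletion of a transcription factor gene. The mice behind the 2 libraries labelled CDX2KO_BRAF carried Cdx2 f/f and BRAF-V600E f/+, those behind the 3 SMAD4KO_BRAF libraries carried Smad4 f/f and BRAF-V600E f/+, and those behind the 3 BRAF libraries carried BRAF-V600E f/+ alone. All 3 groups also carried Villin-CreER(T2), a recombinase driven by the promoter of an epithelial actin-binding protein, so deletion is limited to the intestinal epithelium. Tamoxifen was given on 4 days in a row to all 3 groups, and crypts were taken 1 day after the last injection by release in 3 mM EDTA and passage through a 70 micron filter. The labels give no ages, and they do not say that the libraries of a group came from separate animals. The p-values therefore reflect only how far these libraries differ, which may be partly technical.

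Nuclear receptors are transcription factors that most often carry a DNA-binding domain and a pocket for a small lipophilic ligand, such as a steroid, a vitamin, a fatty acid or a drug. Many bind DNA as pairs with a retinoid X receptor, and ligand binding exchanges corepressor for coactivator proteins on the receptor. In the intestine they are known for sensing absorbed food components, bile acids and xenobiotics, for calcium uptake under vitamin D, and for the circadian repression exerted by the REV-ERB pair.

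Levels are FPKM, fragments normalized to transcript length and to library size, as deposited by the authors. Changes are differences of log2(FPKM + 1) between group means, with the standard error, from limma fitted on the 12084 genes that reached an FPKM of 1 in 2 or more of the 8 libraries. A gene is called at a Benjamini-Hochberg adjusted p under 0.05 over those 12084 genes. Adding 1 makes the changes of genes at low FPKM look smaller than they are. Both comparisons with BRAF use the same 3 BRAF libraries, and the 2 comparisons of the libraries labelled CDX2KO_BRAF use the same 2 libraries.

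The summed FPKM of a library was between 431269 and 595547, 10924 to 11570 genes reached an FPKM of 1, and no counts were given, so the absolute depth is unknown. Smad4 had an FPKM of 7.66 to 10.7 in SMAD4KO_BRAF, against 42.4 to 47.0 in BRAF, a change of -2.19 ± 0.13 with an adjusted p of 0.00163 in limma. Cdx2 went against its label, at 155 and 121 in the libraries labelled CDX2KO_BRAF, against 64.2 to 82.6 in BRAF, a change of 0.86 ± 0.18 with an adjusted p of 0.0213 in limma. Values per gene do not show whether the reads counted for Cdx2 lie inside the floxed part, so directions below belong to the libraries labelled CDX2KO_BRAF. Y-linked genes marked SMAD4KO_BRAF library 0 and BRAF library 0 as male and the other 6 libraries as female. The libraries of SMAD4KO_BRAF, and those of BRAF, thus cannot all come from a single animal. For libraries of the same sex within a group this stays unknown. Epithelial markers were present in every library, with a summed FPKM over 7 genes of 3626 to 3657 labelled CDX2KO_BRAF, 3118 to 4609 in SMAD4KO_BRAF and 4343 to 5989 in BRAF. Of the 7, Krt20 and Vil1 fell in the libraries labelled CDX2KO_BRAF against BRAF and 0 rose. Their changes were -2.28 and -0.92, with adjusted p of 0.0219 and 0.0494 in limma. In SMAD4KO_BRAF against BRAF all 7 changes were negative and 0 genes were called.

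Of the 38 receptor genes, 27 were at an FPKM of at least 1 in every library and 16 had a mean of at least 10 over the 8 libraries. Esrra, the estrogen-related receptor that drives genes of mitochondrial respiration, had the highest mean in each group, at 65.5 ± 3.08 FPKM in the 2 libraries labelled CDX2KO_BRAF, 66.1 ± 18.6 in the 3 of SMAD4KO_BRAF and 90.8 ± 18.7 in the 3 of BRAF (mean ± SD). Behind it the order differed between groups. In SMAD4KO_BRAF and BRAF the second place went to Vdr, the vitamin D receptor, while in the libraries labelled CDX2KO_BRAF it went to Nr1i2, the pregnane X receptor, and Vdr stood in place 14. Pparg, the fatty acid sensor of fat cells and of colonic epithelium, stood in place 3 in the libraries labelled CDX2KO_BRAF, in place 16 in SMAD4KO_BRAF and in place 14 in BRAF. Neighbours in these orders mostly overlapped. In BRAF, the ranges of Esrra and Vdr overlapped, and that of Vdr, from 54.1 to 97.8 FPKM, lay above that of Ppard in place 3, from 33.7 to 50.8 FPKM. In the libraries labelled CDX2KO_BRAF, the ranges of Nr1i2, Pparg and Nr2f6 in places 2 to 4 overlapped, each with the next.

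**Figure D1:**
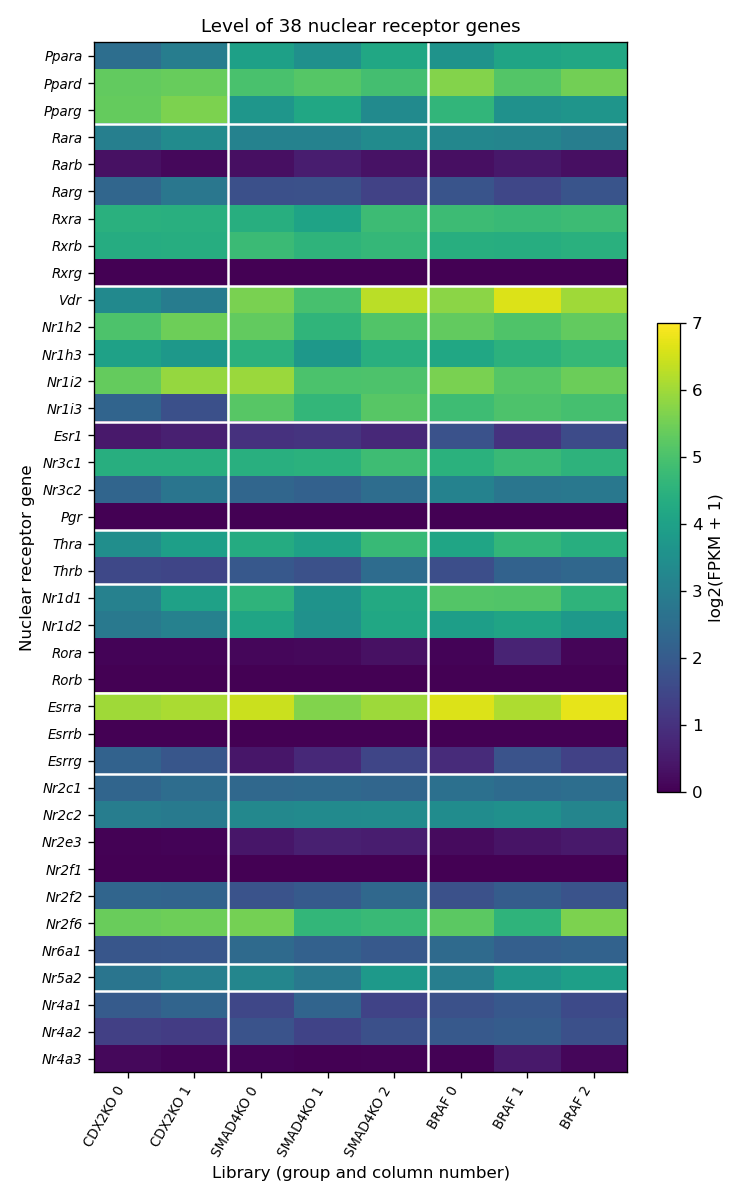
Heat map of log2(FPKM + 1) for the 38 receptor genes (rows, grouped by role) in the 8 libraries (columns, with the libraries labelled CDX2KO_BRAF at the left, then SMAD4KO_BRAF, then BRAF), with darker cells lower. Vdr and Nr1i3 are darker in the 2 libraries at the left than in the others, Pparg is lighter there, and 9 genes lie under an FPKM of 1 in every library.

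In the libraries labelled CDX2KO_BRAF against BRAF, 7 of the 29 tested receptors were called, or 24.1%, against 14.1% of all 12084 genes. Of these, 5 fell, against 7.21% of all genes, namely Nr1i3, Vdr, Ppara, Nr1d2 and Nr1d1, and 2 rose, against 6.89%, namely Pparg and Rarg. The median change over the 29 was -0.36, beside 0.02 over all genes. The values of the 2 groups did not overlap for 21 of the 29, of which 16 were lower and 5 higher in the libraries labelled CDX2KO_BRAF. Over all genes the groups did not overlap for 48.4%, with 22.7% lower and 25.7% higher. With only the 6 female libraries, 4 of the 29 were called, or 13.8%, beside 10.9% of all genes, Nr1i3 at -3.01 (adjusted p 0.00672), Vdr at -3.19 (0.0199), Ppara at -1.39 (0.0370) and Pparg at 1.88 (0.0208). Nr1d2, Rarg and Nr1d1 had the same direction there without a call, at -0.97 (0.0776), 0.90 (0.0868) and -1.28 (0.114). Against SMAD4KO_BRAF, 6 of 29 were called, or 20.7%, beside 11.6% of all genes, with Nr1i3, Vdr, Nr1d2 and Ppara lower, beside 5.01% of all genes, and Pparg and Rarg higher, beside 6.6%. The groups of that comparison did not overlap for 16 of 29, of which 12 were lower and 4 higher in the libraries labelled CDX2KO_BRAF, beside 22.2% and 25.1% of all genes. The SMAD4KO_BRAF libraries against BRAF gave 0 calls among the 29, beside 0.0745% of all genes, of which 0.0248% were higher and 0.0497% lower. At an unadjusted p under 0.05, limma gave 4 of 29 there, or 13.8%, beside 15.1% of all genes.

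**Figure D2:**
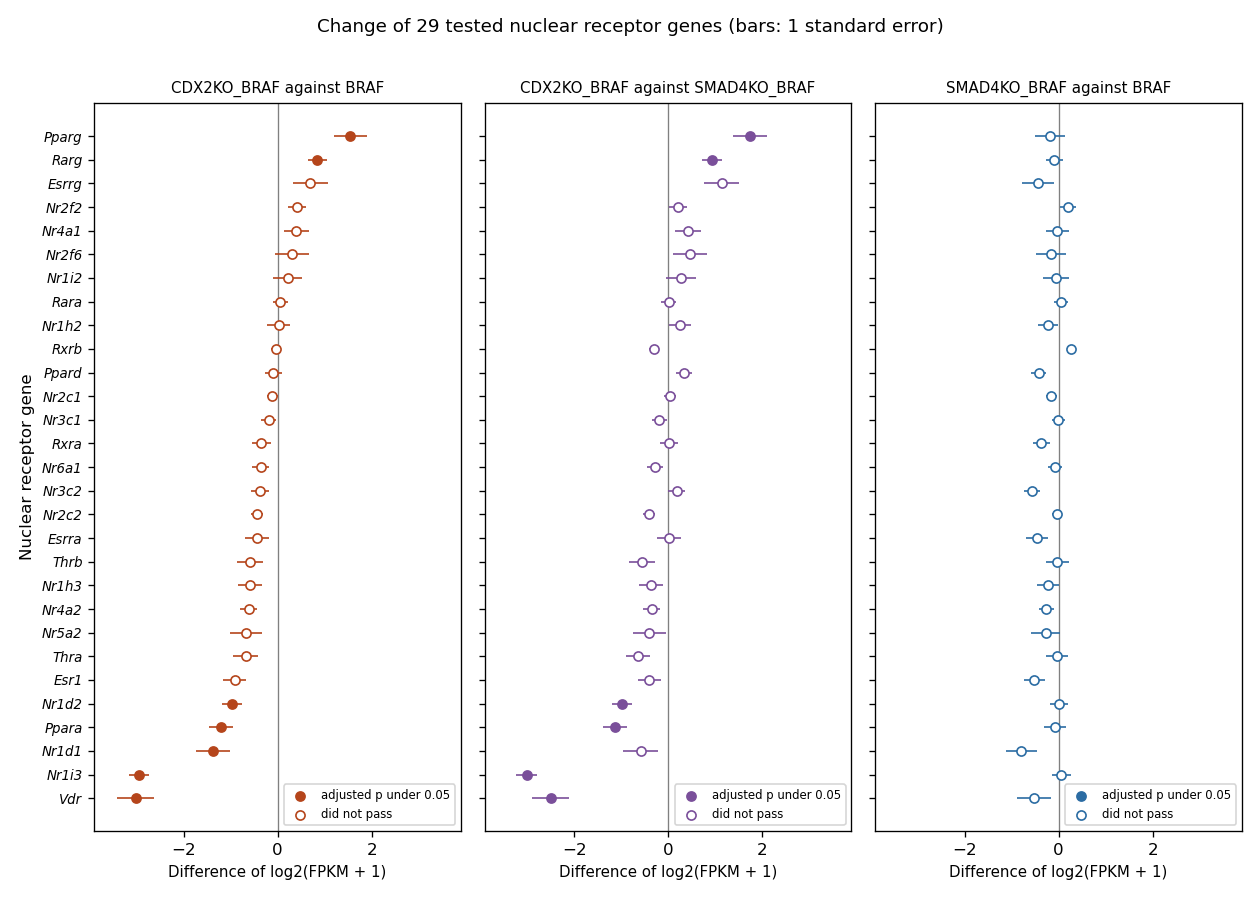
Change in log2(FPKM + 1) with its standard error for the 29 tested receptors (rows) in the 3 comparisons (panels), with filled points at an adjusted p under 0.05 in limma. Filled points number 7, 6 and 0 in the comparisons of CDX2KO_BRAF with BRAF, of CDX2KO_BRAF with SMAD4KO_BRAF and of SMAD4KO_BRAF with BRAF.

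The sequence before the transcription start is shown for 5 of the 7 receptors called against BRAF, the vitamin D and xenobiotic sensors that fell, the REV-ERB pair that fell together, and Pparg, which rose. The sequences are from RefSeq, build GRCm38.p6, 5′ to 3′ on the strand of the gene, and leave out bases that the annotation places in an exon. Capitals mark a match to 1 of 4 motifs searched on both strands, namely AGGTCA, the half-site of many nuclear receptors, TTTAT, the core of CDX sites, CACGTG, the E-box of clock activators, and TTATGTAA, the element of the PAR bZIP factors such as DBP and TEF. For Pparg the window of annotated start 3, which lies inside the gene, is the one of 3 that is wholly outside annotated exons.
Vdr, - strand, chr15:97908311-97908546, 250 to 15 bases before the start: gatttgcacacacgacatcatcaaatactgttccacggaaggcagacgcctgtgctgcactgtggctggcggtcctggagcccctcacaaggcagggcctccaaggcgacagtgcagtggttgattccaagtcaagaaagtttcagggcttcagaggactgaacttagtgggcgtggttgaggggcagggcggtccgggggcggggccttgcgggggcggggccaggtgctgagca
Nr1i3, + strand, chr1:171213720-171213933, 250 to 37 bases before the start: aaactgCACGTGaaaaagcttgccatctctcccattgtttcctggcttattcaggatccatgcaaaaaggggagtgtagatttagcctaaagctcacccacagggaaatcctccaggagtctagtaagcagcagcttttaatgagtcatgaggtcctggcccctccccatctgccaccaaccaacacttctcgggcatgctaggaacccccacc
Nr1d1, - strand, chr11:98775378-98775627, 250 to 1 bases before the start: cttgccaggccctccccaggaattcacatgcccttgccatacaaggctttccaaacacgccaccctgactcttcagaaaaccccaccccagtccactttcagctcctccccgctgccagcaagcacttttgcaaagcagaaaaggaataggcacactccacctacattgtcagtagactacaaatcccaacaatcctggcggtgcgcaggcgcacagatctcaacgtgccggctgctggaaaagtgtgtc
Nr1d2, - strand, chr14:18239128-18239356, 250 to 22 bases before the start: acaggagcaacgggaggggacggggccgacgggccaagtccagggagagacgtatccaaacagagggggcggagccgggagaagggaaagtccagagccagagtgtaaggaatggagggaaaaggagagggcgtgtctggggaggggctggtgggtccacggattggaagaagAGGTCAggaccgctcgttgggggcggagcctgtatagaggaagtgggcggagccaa
Pparg start 3, + strand, chr6:115421816-115422065, 250 to 1 bases before the start: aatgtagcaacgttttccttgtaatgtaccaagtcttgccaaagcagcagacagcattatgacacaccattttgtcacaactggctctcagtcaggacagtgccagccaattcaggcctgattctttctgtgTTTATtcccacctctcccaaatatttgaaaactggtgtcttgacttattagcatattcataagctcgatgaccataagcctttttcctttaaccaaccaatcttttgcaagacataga
The Vdr and Nr1d1 windows held none of the 4 motifs. In Nr1i3 the letters CACGTG lay 244 to 239 bases before the start, in Nr1d2 AGGTCA lay 77 to 72 bases before it, and in Pparg TTTAT lay 118 to 114 bases before start 3. The other 2 Pparg windows, not shown, held matches when exon bases were included. AGGTCA lay 28 to 23 bases before start 1 and 9 to 4 before start 2. TTTAT lay 96 to 92 and 29 to 25 bases before start 2. Values per gene do not show which Pparg start was used. Over 32851 windows of 250 bases before a start, exon bases included, 14.0% held AGGTCA, 37.3% held TTTAT, 6.02% held CACGTG and 0.819% held TTATGTAA. The 36 receptor genes found there had 56 windows, of which 16.1% held AGGTCA, 26.8% TTTAT, 5.36% CACGTG and 0 the last. None of the 4 motifs overlaps another in these 5 sequences. A match describes letters and is no evidence of binding, and Nr3c1 and Thra had no window.

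Among the receptors for vitamin D, xenobiotics and sterols, Vdr and Nr1i3 were several-fold lower in the libraries labelled CDX2KO_BRAF than in either other group, while Nr1i2 and the LXR pair gave no call. Vdr binds calcitriol and induces intestinal calcium uptake. It had 8.93 and 6.63 FPKM in the libraries labelled CDX2KO_BRAF, 47.3, 30.4 and 77.0 in SMAD4KO_BRAF and 54.1, 97.8 and 63.3 in BRAF. Both libraries labelled CDX2KO_BRAF lay below all 6 others, and SMAD4KO_BRAF overlapped with BRAF. The mean was 9.22-fold lower than in BRAF, a change of -3.02 ± 0.40 with an adjusted p of 0.00421 in limma, and 6.63-fold lower than in SMAD4KO_BRAF, a change of -2.50 ± 0.40 with an adjusted p of 0.0103. The call against BRAF held under all 18 alternatives. Against SMAD4KO_BRAF it ended without CDX2KO_BRAF library 0 (adjusted p 0.0505) or library 1 (0.0848), where the lone library left is assumed to vary like the other groups. Of the summed FPKM of all 38 receptors, Vdr made up 2.13% and 1.38% in the libraries labelled CDX2KO_BRAF, 7.56% to 14.2% in SMAD4KO_BRAF and 9.10% to 16.9% in BRAF.

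Nr1i3 encodes the constitutive androstane receptor, a sensor of drugs and bile pigments that is best known in liver. It had 3.76 and 2.29 FPKM in the libraries labelled CDX2KO_BRAF, 35.2, 23.8 and 35.1 in SMAD4KO_BRAF and 27.2, 31.9 and 29.9 in BRAF. The 6 libraries outside CDX2KO_BRAF fell into one narrow range from 23.8 to 35.2. The change against BRAF was -2.95 ± 0.22, a mean 9.79-fold lower, with an adjusted p of 0.000605 in limma, and against SMAD4KO_BRAF it was -3.01 ± 0.22, with an adjusted p of 0.000656. These calls held under all 18 alternatives each. The library kit does not mark strand, and 2160 of the 3270 exonic bases of Nr1i3 in the GENCODE M21 annotation, 66.1%, overlap exons of Tomm40l on the other strand, so reads there cannot be told apart. Tomm40l, which encodes a mitochondrial import protein, had 16.9 and 16.5 FPKM in the libraries labelled CDX2KO_BRAF, against 19.9, 20.3 and 21.7 in BRAF, a change of -0.29 with an adjusted p of 0.161.

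Nr1i2, the pregnane X receptor, binds many drugs and bile acids and shares target genes with Nr1i3. Its FPKM was 39.4 and 58.3 in the libraries labelled CDX2KO_BRAF, 60.5, 31.5 and 32.3 in SMAD4KO_BRAF and 47.7, 34.7 and 42.2 in BRAF. The 3 groups overlapped, with a change of 0.22 ± 0.31 against BRAF (adjusted p 0.683 in limma). The ratio of Nr1i2 to Nr1i3, both FPKM, was 10.48 and 25.4 in the libraries labelled CDX2KO_BRAF, 0.921 to 1.72 in SMAD4KO_BRAF and 1.09 to 1.75 in BRAF. Nr1h3 and Nr1h2 encode the oxysterol receptors LXR alpha and LXR beta. Nr1h3 had 15.0 and 12.3 FPKM in the libraries labelled CDX2KO_BRAF, 21.8, 12.4 and 20.3 in SMAD4KO_BRAF and 16.9, 21.8 and 24.6 in BRAF. It was below every BRAF library in both and missed the threshold, with a change of -0.59 ± 0.26 (adjusted p 0.185 in limma). Nr1h2 ranged from 32.0 to 43.2 FPKM in the libraries labelled CDX2KO_BRAF, from 22.9 to 39.0 in SMAD4KO_BRAF and from 32.7 to 38.9 in BRAF. Its change against BRAF was 0.02 ± 0.24 (adjusted p 0.964 in limma).

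**Figure D3:**
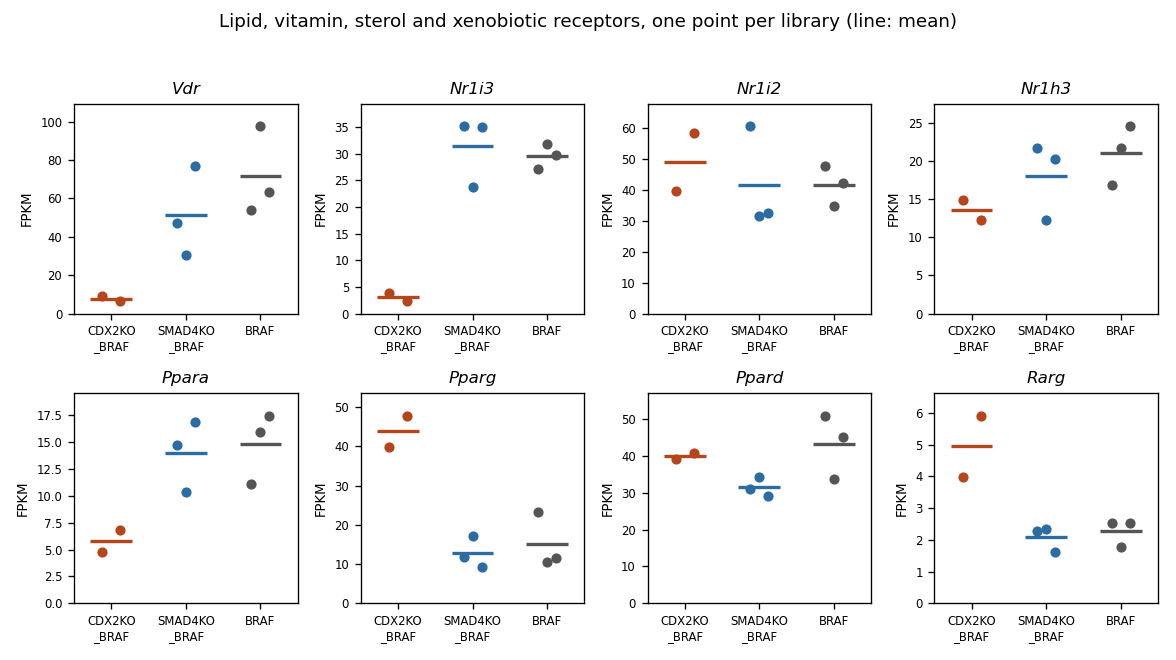
FPKM of 8 ligand-sensing receptors in each library (points, with an axis from 0 for each gene) and the group mean (line), for the libraries labelled CDX2KO_BRAF, SMAD4KO_BRAF and BRAF from left to right. Vdr and Nr1i3 reach at most 8.93 FPKM in the 2 libraries labelled CDX2KO_BRAF and at least 23.8 in all others, while Pparg lies at 39.9 and 47.8 in the libraries labelled CDX2KO_BRAF and between 9.29 and 23.2 in the rest.

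Genes listed as targets of PXR and CAR, the proteins of Nr1i2 and Nr1i3, moved in both directions. Of the 19 tested on the list, 4 fell and 3 rose in the libraries labelled CDX2KO_BRAF against BRAF, beside 7.21% and 6.89% of all genes. The median change was -0.48, beside 0.02 over all genes. In SMAD4KO_BRAF against BRAF the median was -0.47, beside -0.01 over all genes, with 14 of the 19 negative and 0 called. There, 8 of the 19 had an unadjusted p under 0.05 in limma, beside 15.1% of all genes. Abcb1a, the drug efflux pump of the apical membrane, had 6.45 and 3.26 FPKM in the libraries labelled CDX2KO_BRAF, against 143, 132 and 96.1 in BRAF, a change of -4.45 ± 0.32 with an adjusted p of 0.000482 in limma. Abcc2, an exporter of conjugates, fell by 2.57, Ugt1a1, which conjugates bilirubin, by 2.59 and Alas1, the first enzyme of haem synthesis, by 0.70 on the log2 scale. Sult1a1, a sulfotransferase, had 6.95 and 5.20 FPKM, against 0.214, 0.218 and 0.581 in BRAF, a change of 2.40 ± 0.24 with an adjusted p of 0.00153. The other genes that rose were Cyp2c65, a cytochrome P450, by 1.71, and Aldh1a7, an aldehyde dehydrogenase, by 1.16. Of 9 listed VDR targets 5 were tested and 0 were called in limma, against 1 at an unadjusted p under 0.05, with a median of 0.26. That one was Cldn2, a cation pore of tight junctions, at 331 and 395 FPKM in the libraries labelled CDX2KO_BRAF, 200, 211 and 104 in SMAD4KO_BRAF and 216, 115 and 177 in BRAF, with a change of 1.14 ± 0.37 against BRAF (adjusted p 0.0902). Both libraries labelled CDX2KO_BRAF lay above the other 6. The sum of the 9 was 505 and 482 FPKM in the libraries labelled CDX2KO_BRAF, 158 to 297 in SMAD4KO_BRAF and 235 to 346 in BRAF. Of the 505 and 482, Cldn2 alone made up 331 and 395. S100g, the calcium-binding protein calbindin-D9k, had 16.0 and 5.82 FPKM in the libraries labelled CDX2KO_BRAF, against 23.8, 4.78 and 24.2 in BRAF, with overlap. Cyp24a1 and Trpv6, the catabolic enzyme of vitamin D and an apical calcium channel, stayed under an FPKM of 0.1 in every library.

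On a list of LXR targets, the median change against BRAF was -1.10 over 10 tested genes in the libraries labelled CDX2KO_BRAF. Of the 10, 4 fell and 0 rose, beside 7.21% and 6.89% of all genes. In SMAD4KO_BRAF against BRAF the median was -0.54, beside -0.01 over all genes, with 9 of the 10 negative and 0 called. There, 5 of the 10 had an unadjusted p under 0.05 in limma, beside 15.1% of all genes. The sum of the 12 listed genes was 245 and 226 FPKM in the libraries labelled CDX2KO_BRAF. It was 341 to 407 in SMAD4KO_BRAF and 691 to 767 in BRAF. Both subunits of the sterol exporter were among the 4 that fell in the libraries labelled CDX2KO_BRAF. Abcg5 had 16.4 and 7.68 FPKM in the libraries labelled CDX2KO_BRAF, against 103, 88.7 and 98.3 in BRAF, a change of -2.99 ± 0.37 with an adjusted p of 0.00335 in limma. Abcg8 had 7.45 and 3.86 FPKM, against 50.2, 46.4 and 45.6 in BRAF, a change of -2.92 ± 0.33 with an adjusted p of 0.00244. Scd1 and Scd2, which desaturate fatty acids, changed by -4.23 and -2.65. Ugt1a1, Aldh1a7 and Scd2 were named after their values were seen, because they complete these counts.

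**Figure D4:**
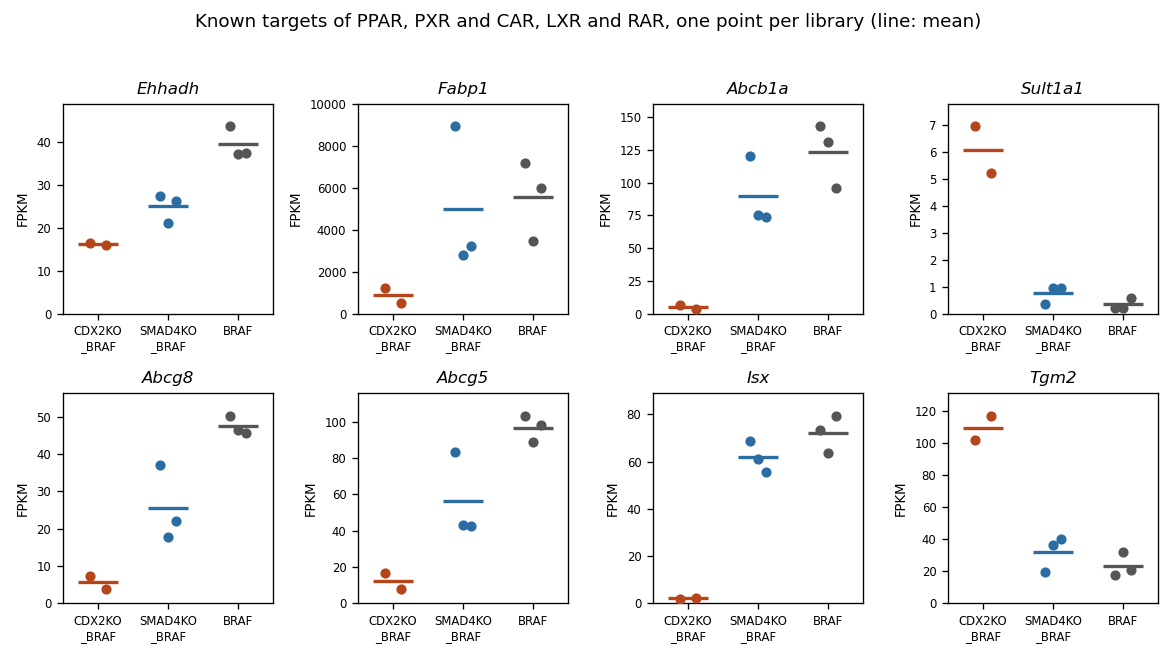
FPKM of 8 target genes of PPAR, PXR or CAR, LXR and retinoid receptors in each library (points, with an axis from 0 for each gene) and the group mean (line), for the libraries labelled CDX2KO_BRAF, SMAD4KO_BRAF and BRAF from left to right. Sult1a1 and Tgm2 are highest in the libraries labelled CDX2KO_BRAF, and Fabp1, Ehhadh, Abcb1a, Abcg8, Abcg5 and Isx are lowest there.

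The 3 peroxisome proliferator-activated receptors, which sense fatty acids, did 3 different things. Pparg had 39.9 and 47.8 FPKM in the libraries labelled CDX2KO_BRAF, 11.9, 17.1 and 9.29 in SMAD4KO_BRAF and 23.2, 10.6 and 11.7 in BRAF. Both libraries labelled CDX2KO_BRAF lay above all 6 others. Against BRAF the mean was 2.89-fold higher, a change of 1.55 ± 0.36 with an adjusted p of 0.0305 in limma, and against SMAD4KO_BRAF 3.44-fold higher, a change of 1.74 ± 0.36 with an adjusted p of 0.0232. The call against BRAF ended in 6 of 18 alternatives, among them those with adjusted p of 0.0714 without BRAF library 1, 0.0878 without BRAF library 2, and 0.112 and 0.165 without CDX2KO_BRAF library 0 or 1. The call against SMAD4KO_BRAF ended without SMAD4KO_BRAF library 0 (adjusted p 0.0604) or 2 (0.0681) and without CDX2KO_BRAF library 0 (0.0998) or 1 (0.136).

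Ppara, the isoform that drives fatty acid oxidation, had 4.81 and 6.83 FPKM in the libraries labelled CDX2KO_BRAF, 14.7, 10.4 and 16.9 in SMAD4KO_BRAF and 11.1, 15.9 and 17.5 in BRAF. The 2 libraries labelled CDX2KO_BRAF were again apart from the other 6, here below them. The mean was 2.54-fold lower than in BRAF, a change of -1.21 ± 0.26 with an adjusted p of 0.0251 in limma, and the change against SMAD4KO_BRAF was -1.13 ± 0.26 with an adjusted p of 0.0354. The call against BRAF ended without BRAF library 1 (adjusted p 0.0646) or 2 (0.0750) and without CDX2KO_BRAF library 0 (0.158) or 1 (0.0761), and the call against SMAD4KO_BRAF ended in 8 of 18 alternatives, among them without BRAF library 2, SMAD4KO_BRAF library 0 or 2, or CDX2KO_BRAF library 0 or 1 (0.0525 to 0.209). Ppard, which is widely expressed in epithelia, had 39.0 and 40.8 FPKM in the libraries labelled CDX2KO_BRAF, 31.1, 34.3 and 29.1 in SMAD4KO_BRAF and 50.8, 33.7 and 45.0 in BRAF. The libraries labelled CDX2KO_BRAF lay within the BRAF range, with a change of -0.09 ± 0.18 (adjusted p 0.764). The ratio of Pparg to Ppara, both FPKM, was 8.29 and 6.99 in the libraries labelled CDX2KO_BRAF, 0.549 to 1.65 in SMAD4KO_BRAF and 0.667 to 2.095 in BRAF.

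Of 22 tested PPAR targets, 3 fell and 1 rose in the libraries labelled CDX2KO_BRAF against BRAF, beside 7.21% and 6.89% of all genes. The median change was -0.25. Ehhadh, the bifunctional enzyme of peroxisomal beta-oxidation, had 16.5 and 16.0 FPKM in the libraries labelled CDX2KO_BRAF, against 43.6, 37.2 and 37.4 in BRAF, a change of -1.22 ± 0.14 with an adjusted p of 0.00249 in limma. The others that fell were Fabp1 and Cd36, carriers of fatty acids, with changes of -2.74 and -1.79. Fabp1 is also on the list of enterocyte markers below.

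Among retinoic acid and retinoid X receptors, 1 of 4 tested genes was called in each comparison of the libraries labelled CDX2KO_BRAF. Over all genes, 14.1% were called against BRAF and 11.6% against SMAD4KO_BRAF. Rarg, the retinoic acid receptor gamma, had 3.99 and 5.91 FPKM in the libraries labelled CDX2KO_BRAF, 2.29, 2.34 and 1.62 in SMAD4KO_BRAF and 2.52, 1.78 and 2.54 in BRAF. It was low in all libraries and higher in both labelled CDX2KO_BRAF than in any other, with a change of 0.85 ± 0.21 against BRAF (adjusted p 0.0381 in limma) and 0.94 ± 0.21 against SMAD4KO_BRAF (adjusted p 0.0317). Rarg did not reach an FPKM of 5 in 2 or more libraries, so that filter left it out and 17 alternatives remained. The call against BRAF ended in 10 of these 17, among them leaving out any 1 library other than SMAD4KO_BRAF library 2. The call against SMAD4KO_BRAF ended in 9 of 17, among them leaving out any 1 library other than BRAF library 0 or 1 (0.0542 to 0.179). Rara, the more abundant receptor for retinoic acid, ranged from 6.95 to 9.37 FPKM over the 8 libraries, with a change of 0.06 ± 0.16 against BRAF (adjusted p 0.832). Rxra and Rxrb are the shared partners of many receptors on DNA. Rxra had 20.7 and 20.5 FPKM in the libraries labelled CDX2KO_BRAF, 20.0, 15.6 and 26.9 in SMAD4KO_BRAF and 26.8, 25.97 and 26.8 in BRAF. The BRAF libraries were higher than both labelled CDX2KO_BRAF, and the change of -0.35 ± 0.20 missed the threshold (adjusted p 0.296). The sum of Rxra, Rxrb and Rxrg was 39.8 and 40.2 FPKM in the libraries labelled CDX2KO_BRAF, 37.9 to 50.9 in SMAD4KO_BRAF and 45.6 to 47.3 in BRAF. The sum of 13 receptors that pair with them, namely the PPARs, retinoic acid receptors, LXRs, thyroid hormone receptors, Vdr, Nr1i2 and Nr1i3, exceeded it in every library, by 5.17 and 6.21 times in the libraries labelled CDX2KO_BRAF, 5.55 to 6.34 times in SMAD4KO_BRAF and 6.42 to 6.95 times in BRAF.

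Of 8 tested retinoid target and handling genes, 3 rose and 3 fell in the libraries labelled CDX2KO_BRAF against BRAF. Over all genes 6.89% rose and 7.21% fell. The median change of the 8 was 0.99. Isx, a homeobox repressor of carotenoid uptake, had 2.03 and 2.37 FPKM in the libraries labelled CDX2KO_BRAF, against 73.2, 63.6 and 79.4 in BRAF, a change of -4.51 ± 0.14 with an adjusted p of 8.69e-06 in limma. Rbp2, the cellular retinol carrier of enterocytes, and Lrat, which esterifies retinol, changed by -2.27 and -1.50. Among those that rose were Tgm2, a transglutaminase, by 2.22 and Dhrs3, a retinal reductase, by 1.30. Lrat and Dhrs3 were named after their values were seen.

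Nr1d1 and Nr1d2 encode REV-ERB alpha and beta, which bind haem and repress Arntl, the gene of the clock activator BMAL1. Nr1d1 had 7.44 and 15.2 FPKM in the libraries labelled CDX2KO_BRAF, 22.3, 11.2 and 17.9 in SMAD4KO_BRAF and 33.9, 33.4 and 22.3 in BRAF. The libraries labelled CDX2KO_BRAF lay below all BRAF libraries and overlapped with SMAD4KO_BRAF. The change against BRAF was -1.38 ± 0.37 with an adjusted p of 0.0492 in limma, just past the threshold. The call ended in 12 of 18 alternatives, among them leaving out any 1 library other than SMAD4KO_BRAF library 0 or 1 (adjusted p 0.0643 to 0.278). Nr1d2 had 6.12 and 7.49 FPKM in the libraries labelled CDX2KO_BRAF, 16.3, 10.6 and 17.1 in SMAD4KO_BRAF and 14.2, 16.0 and 12.6 in BRAF. Both libraries labelled CDX2KO_BRAF lay below the other 6. The change was -0.97 ± 0.21 against BRAF (adjusted p 0.0272 in limma) and -0.98 ± 0.21 against SMAD4KO_BRAF (adjusted p 0.0294). The call against BRAF ended with only female libraries (adjusted p 0.0776) and without any 1 library of BRAF or CDX2KO_BRAF (0.0537 to 0.161), and the call against SMAD4KO_BRAF ended in 7 of 18 alternatives, among them without SMAD4KO_BRAF library 0 or 2 or CDX2KO_BRAF library 0 or 1 (0.0714 to 0.176). Exons of Nr1d1 and Thra overlap on opposite strands by 263 bases, 9.67% and 8.33% of their exonic bases.

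Of 17 tested clock genes, 5 fell and 1 rose in the libraries labelled CDX2KO_BRAF against BRAF, beside 7.21% and 6.89% of all genes. The median change was -0.18. The one that rose was Arntl, at 11.98 and 10.7 FPKM in the libraries labelled CDX2KO_BRAF, 3.46, 5.25 and 2.57 in SMAD4KO_BRAF and 6.10, 5.24 and 5.37 in BRAF. Its change was 0.91 ± 0.23 against BRAF (adjusted p 0.0395 in limma) and 1.41 ± 0.23 against SMAD4KO_BRAF (adjusted p 0.0107). Tef and Dbp, bZIP factors of the clock output, fell. Tef had 4.91 and 6.74 FPKM, against 17.0, 23.2 and 21.6 in BRAF, a change of -1.66 ± 0.25 with an adjusted p of 0.00642. Dbp had 1.01 and 1.67 FPKM, against 5.07, 7.04 and 8.75 in BRAF, a change of -1.75 ± 0.40 with an adjusted p of 0.0311. The period genes Per2 and Per3 changed by -0.70 and -1.34. The same 6 genes were called in the same directions against SMAD4KO_BRAF, a comparison that uses the same libraries labelled CDX2KO_BRAF. The ratio of Arntl to Nr1d1, both FPKM, was 1.61 and 0.702 in the libraries labelled CDX2KO_BRAF, 0.144 to 0.469 in SMAD4KO_BRAF and 0.157 to 0.241 in BRAF. The labels give no hour of collection. Per3 was named after its values were seen.

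**Figure D5:**
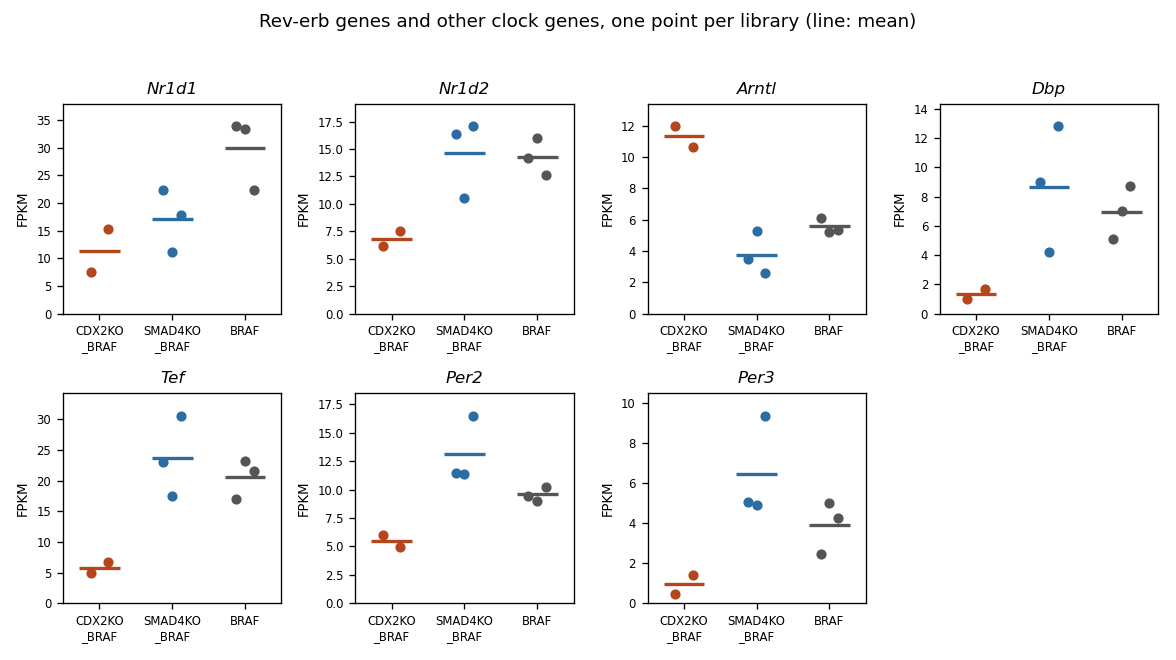
FPKM of the REV-ERB genes Nr1d1 and Nr1d2 and of 5 clock genes in each library (points, with an axis from 0 for each gene) and the group mean (line), for the libraries labelled CDX2KO_BRAF, SMAD4KO_BRAF and BRAF from left to right. Arntl is higher in both libraries labelled CDX2KO_BRAF than in any other, and Nr1d2, Dbp, Tef, Per2 and Per3 are lower there.

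No steroid, thyroid, estrogen-related, NR4A, NR5A or orphan receptor was called in any comparison. Esr1, the estrogen receptor alpha, came closest, at 0.385 and 0.532 FPKM in the libraries labelled CDX2KO_BRAF, 0.981, 1.07 and 0.739 in SMAD4KO_BRAF and 2.40, 1.02 and 2.02 in BRAF. The libraries labelled CDX2KO_BRAF were the lowest of the 8, with a change of -0.92 ± 0.25 against BRAF and an adjusted p of 0.0502 in limma, which passed in 5 of 17 alternatives, at 0.0168 without BRAF library 1. Nr3c1, the glucocorticoid receptor, ranged from 19.8 to 27.6 FPKM over the 8 libraries, with a change of -0.19 ± 0.16 against BRAF (adjusted p 0.461). Of 14 tested glucocorticoid targets, 2 rose and 0 fell in the libraries labelled CDX2KO_BRAF against BRAF, beside 6.89% and 7.21% of all genes. The median change was 0.19. Fkbp5, a co-chaperone of the receptor, had 223 and 282 FPKM, against 90.1, 35.2 and 84.7 in BRAF, a change of 1.94 ± 0.47 with an adjusted p of 0.0369. Zbtb16, a zinc finger repressor, had 2.94 and 3.79 FPKM, against 0.234, 0.0939 and 0.0542 in BRAF, a change of 1.95 ± 0.27 with an adjusted p of 0.00480.

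Thra and Thrb, the thyroid hormone receptors, were both below every other library in the libraries labelled CDX2KO_BRAF. Thra had 10.01 and 14.3 FPKM there, 18.7, 15.0 and 25.4 in SMAD4KO_BRAF and 16.4, 23.7 and 20.1 in BRAF. Thrb had 1.85 and 1.75 FPKM in the libraries labelled CDX2KO_BRAF, 2.80, 2.30 and 4.58 in SMAD4KO_BRAF and 2.22, 3.64 and 4.03 in BRAF. Neither passed against BRAF, with changes of -0.68 ± 0.26 (adjusted p 0.129 in limma) and -0.59 ± 0.28 (adjusted p 0.210). Hr, a corepressor gene that thyroid hormone induces in brain, was the 1 of 4 tested thyroid targets called, with a change of 1.33 ± 0.27. Among all genes 14.1% were called. Esrra had 63.3 and 67.6 FPKM in the libraries labelled CDX2KO_BRAF, 86.3, 49.7 and 62.2 in SMAD4KO_BRAF and 97.8, 69.6 and 105 in BRAF. Its change against BRAF was -0.45 ± 0.26 (adjusted p 0.304), and of 10 tested ERR targets 0 were called by limma, with 4 at an unadjusted p under 0.05 and a median of -0.17. Esrrg, a relative of Esrra, had 3.62 and 2.65 FPKM in the libraries labelled CDX2KO_BRAF, 0.333, 0.755 and 1.78 in SMAD4KO_BRAF and 0.825, 2.47 and 1.58 in BRAF. The libraries labelled CDX2KO_BRAF were the highest of the 8, and neither change passed, at 0.69 ± 0.37 against BRAF (adjusted p 0.271) and 1.14 ± 0.37 against SMAD4KO_BRAF (adjusted p 0.0930).

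Nr2c2, the orphan receptor TR4, had 6.80 and 6.37 FPKM in the libraries labelled CDX2KO_BRAF, 8.70, 9.12 and 9.34 in SMAD4KO_BRAF and 9.55, 10.3 and 8.07 in BRAF. Both libraries labelled CDX2KO_BRAF were below the other 6, with a change of -0.44 ± 0.12 against BRAF that missed the threshold (adjusted p 0.0592 in limma). Exons of Mrps25 on the other strand overlap 43.5% of its exonic bases. Nr2f6, an orphan of the COUP-TF group, was the most abundant of its group, at 41.6 and 43.1 FPKM in the libraries labelled CDX2KO_BRAF, 45.4, 23.7 and 25.9 in SMAD4KO_BRAF and 36.8, 22.3 and 48.3 in BRAF. The groups overlapped, with a change of 0.30 ± 0.36 (adjusted p 0.616), and Ocel1 on the other strand overlaps 41.2% of its exonic bases. Nr2f2, Nr2c1 and Nr6a1 ranged from 2.33 to 4.13, from 3.902 to 4.96 and from 2.67 to 4.37 FPKM over the 8 libraries. Nr4a1 and Nr4a2 are immediate early genes that need no known ligand. Nr4a1 had 3.04 and 3.78 FPKM in the libraries labelled CDX2KO_BRAF, 1.82, 3.74 and 1.64 in SMAD4KO_BRAF and 2.31, 2.77 and 1.99 in BRAF. Nr4a2 had 1.51 and 1.38 FPKM in the libraries labelled CDX2KO_BRAF, 2.46, 1.64 and 2.29 in SMAD4KO_BRAF and 2.91, 3.07 and 2.25 in BRAF. Their changes against BRAF ran in opposite directions, at 0.40 ± 0.27 and -0.61 ± 0.18, with adjusted p of 0.379 and 0.0664 in limma. Nr5a2, a crypt receptor known for local glucocorticoid synthesis, had 5.56 and 7.19 FPKM in the libraries labelled CDX2KO_BRAF, 8.27, 6.15 and 12.6 in SMAD4KO_BRAF and 7.01, 11.7 and 14.6 in BRAF, with overlap and a change of -0.67 ± 0.35 (adjusted p 0.252). Of 7 listed NR5A2 targets 3 were tested, and 0 were called by limma, with 1 at an unadjusted p under 0.05.

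In SMAD4KO_BRAF against BRAF, 24 of the 29 tested receptors had a negative change, with a median of -0.16 beside -0.01 over all genes, of which 51.8% had a negative change, and 0 were called. The sum over the 38 was 568, 402 and 541 FPKM in SMAD4KO_BRAF, against 578 to 612 in BRAF, so SMAD4KO_BRAF library 1 stood lowest. Without that library, 17 of the 29, or 58.6%, had a negative change, beside 52.6% of all genes. The median was then -0.06, beside -0.02 over all genes. With all libraries, the groups did not overlap for 3 of the 29, or 10.3%, beside 19.3% of all genes. Of the 3, 2 were lower, beside 10.4% of all genes, and 1 higher, beside 8.99%. Nr3c2, the mineralocorticoid receptor, had 3.91, 3.52 and 4.64 FPKM in SMAD4KO_BRAF, against 7.53, 5.73 and 6.01 in BRAF, and 3.897 and 5.59 in the libraries labelled CDX2KO_BRAF. Every SMAD4KO_BRAF library was below every BRAF library, with a change of -0.56 ± 0.17 and an adjusted p of 0.247 in limma. Rxrb was the one that was higher, at 26.2, 22.3 and 24.1 FPKM in SMAD4KO_BRAF, against 19.9, 19.6 and 20.6 in BRAF, with 19.1 and 19.7 in the libraries labelled CDX2KO_BRAF. Its change was 0.26 ± 0.09 with an adjusted p of 0.279. The last of the 3 was Nr2c1, the orphan TR2, with a change of -0.16 ± 0.11. The other receptors with small p were Ppard at -0.43 ± 0.16, Nr1d1 at -0.79 ± 0.33, Esr1 at -0.51 ± 0.22, Rxra at -0.37 ± 0.18, Esrra at -0.47 ± 0.23 and Nr4a2 at -0.26 ± 0.16, with adjusted p of 0.293 to 0.457. With library weights, Ppard and Esrra passed in limma, with adjusted p of 0.0438 and 0.0492. These 2 were 6.9% of the 29, beside 8.85% of all genes called with the same weights.

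Among 26 coactivator and corepressor genes, all tested, 4 rose and 0 fell in the libraries labelled CDX2KO_BRAF against BRAF. Over all genes 6.89% rose and 7.21% fell. Ncoa3, a p160 coactivator, had 17.6 and 19.3 FPKM, against 11.4, 10.52 and 10.1 in BRAF, a change of 0.74 ± 0.11 with an adjusted p of 0.00678 in limma. Hdac3, a histone deacetylase of corepressor complexes, had 106 and 110 FPKM, against 68.2, 63.6 and 64.9 in BRAF, a change of 0.71 ± 0.11 with an adjusted p of 0.00757. Hr changed by 1.33. The medians were 0.01 for the 16 coactivators and 0.16 for the 10 corepressors.

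Of 11 other nuclear receptor genes outside the 38, 5 were tested. Hnf4g and Hnf4a, factors of enterocyte genes, fell in the libraries labelled CDX2KO_BRAF against BRAF, by 2.84 and 0.91 on the log2 scale, with adjusted p of 0.000359 and 0.00915 in limma.

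Some markers of cell types were called in the comparisons of the libraries labelled CDX2KO_BRAF. In the libraries labelled CDX2KO_BRAF against BRAF, 7.21% of all genes fell and 6.89% rose. Of 12 enterocyte markers, 8 fell and 0 rose in the libraries labelled CDX2KO_BRAF against BRAF, with a median of -2.66, and the summed FPKM was 8439 and 3589 in the libraries labelled CDX2KO_BRAF, 6693 to 20277 in SMAD4KO_BRAF and 13370 to 29222 in BRAF. The median over the 12 of the log2 difference from the BRAF mean was -2.26 and -3.01 in the libraries labelled CDX2KO_BRAF, -0.55, -1.25 and -1.68 in SMAD4KO_BRAF and -0.53 to 0.52 in BRAF. Of 6 crypt base markers, which mark stem and Paneth cells, 1 fell in the libraries labelled CDX2KO_BRAF against BRAF, Lyz1, a lysozyme of Paneth cells, by 2.31 on the log2 scale with an adjusted p of 0.0281 in limma. Against SMAD4KO_BRAF 3 fell, beside 5.01% of all genes, namely Smoc2, Lyz1 and Lgr5, a stem cell receptor, with changes of -2.11, -3.14 and -0.89. In SMAD4KO_BRAF against BRAF 0 of the 6 were called by limma, with 2 at an unadjusted p under 0.05 and a median of 0.85. The sum of the 6 was 6169 and 4445 FPKM in the libraries labelled CDX2KO_BRAF, 13624 to 20548 in SMAD4KO_BRAF and 7815 to 13928 in BRAF. Of 7 T cell genes, 0 were called by limma in either direction, none at an unadjusted p under 0.05, with a median of -1.80, and the sum was 7.62 and 42.2 FPKM in the libraries labelled CDX2KO_BRAF, 34.8 to 312 in SMAD4KO_BRAF and 22.6 to 607 in BRAF. The sum of 8 mesenchymal genes was 2.16 and 8.93 FPKM in the libraries labelled CDX2KO_BRAF, 7.59 to 35.3 in SMAD4KO_BRAF and 5.67 to 70.9 in BRAF. The part of these markers in the changes of the receptors was not tested. In such bulk samples, fewer cells of a type and less RNA per cell cannot be told apart.

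The remaining 9 receptors were under an FPKM of 1 in every library and were not tested. Rxrg and Nr2f1 were listed at 0 in all 8. Pgr, Rorb and Esrrb, the progesterone receptor and relatives of the retinoid orphan and estrogen-related groups, were listed at 0 in every library labelled CDX2KO_BRAF or SMAD4KO_BRAF and reached at most 0.0115 FPKM in BRAF. Rarb, the retinoic acid receptor beta, ranged from 0.120 to 0.463 FPKM, and Top2b on the other strand overlaps 52.9% of its exonic bases. Nr2e3, a photoreceptor factor, had 0.0203 and 0.0562 FPKM in the libraries labelled CDX2KO_BRAF, 0.342 to 0.546 in SMAD4KO_BRAF and 0.158 to 0.385 in BRAF. Rora, an activator in the clock, reached 0.609 FPKM in BRAF library 1 and 0.0493 to 0.252 in the other 7. Nr4a3 reached at most 0.396 FPKM, in the same library, and was listed at 0 in SMAD4KO_BRAF library 1.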

How the data were processed

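FPKM values per gene were deposited by the authors in 1 table. The single-end reads of 50 bp came from a TruSeq kit that does not keep strand. TopHat2 2.1.0, Cuffdiff 2.2.1, Cuffnorm 2.2.1 and mm9 are named, without order or role, per the submitters' processing notes. Since columns count from 0 and titles from 1, a column's name gave its group but not its sample, and 3 columns that match no sample were not used. No counts were given. Low values put relative depth at 0.708 to 1.45, with BRAF library 0 at 1.

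log2(FPKM + 1) of the 12084 genes that reached an FPKM of 1 in 2 or more libraries was fitted over all 3 groups with limma 3.58.1 (R 4.3.3, trend), with two-sided Benjamini-Hochberg adjustment within each of 3 comparisons and a threshold of 0.05. Of the 29 receptors that passed the filter, 27 were at 1 or more in every library, the exceptions being Esr1 and Esrrg. Target and marker lists are described by counts and medians, with no set test, and some genes that enter these counts are not reported here. Members and lists were chosen with earlier results of these data known. Named with values were called receptors, the 8 smallest p per comparison, the most abundant receptor of each subfamily, and up to 3 genes per list and comparison. Other genes are said to have been named after their values were seen. Each alternative changed 1 choice, namely the pseudocount (0.1), the filter (none, or a minimum of 5), the scaling (quantile normalization, median-ratio rescaling), the samples (only the groups compared, or 1 library left out) or the model (no trend, library weights, sex as a term). A fit of only female libraries and a block on the column number were chosen after seeing the data. Promoters are from RefSeq (GRCm38.p6) and exon overlaps from GENCODE M21, while the FPKM rest on mm9, so no coordinates were carried between builds. Tables and figures used Python 3.11.15, numpy 2.4.6, pandas 2.3.3 and matplotlib 3.10.9.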

Additional observations from a re-analysis of the deposited data

How the results depend on the processing

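All 24 results on single receptors that were tried kept their direction under the alternatives in which they were tested, and 10 stayed on their side of the threshold in each. These number 18, or 17 for Esr1, Rarg, Esrrg and Nr4a2, which did not reach the minimum FPKM of 5 in 2 or more libraries. For the libraries labelled CDX2KO_BRAF against BRAF, 7 receptors were called, and 4 with no filter, with only the 2 groups compared or with only female libraries, which is 11.1%, 13.8% and 13.8% of those tested beside 7.4%, 11.3% and 10.9% of all genes. Leaving out 1 library gave 2 to 6, with 4 without BRAF library 0, 3 without BRAF library 1, and 2 without BRAF library 2 or either CDX2KO_BRAF library. Without BRAF library 1 or 2 the share of receptors called, 10.3% and 6.9%, was below that of all genes, 1265 and 1029 of 12084, and without CDX2KO_BRAF library 0 or 1 it was 6.9%, beside 5.73% and 4.08%. Against SMAD4KO_BRAF, 6 were called, 3 with only the 2 groups compared or only female libraries, and 1 to 6 when 1 library was left out, with 2 without SMAD4KO_BRAF library 0 or 2 and 1 without either CDX2KO_BRAF library. Without SMAD4KO_BRAF library 0 or 2 that is 6.9%, beside 8.63% and 6.21% of all genes, and without CDX2KO_BRAF library 0 or 1 it is 3.45%, beside 4.22% and 2.79%. With only the 2 groups compared or only female libraries, the 3 called against SMAD4KO_BRAF were 10.3%, beside 8.03% and 8.91% of all genes. The 4 called against BRAF without BRAF library 0 were 13.8%, beside 10% of all genes. For SMAD4KO_BRAF against BRAF, 0 were called, 2 with library weights (6.9%, beside 8.85% of all genes), and 0 when any 1 library of SMAD4KO_BRAF or BRAF was left out. Over all genes, library weights moved the calls for CDX2KO_BRAF against BRAF to 2602 from a main count of 1704, for CDX2KO_BRAF against SMAD4KO_BRAF to 2447 (main 1402) and for SMAD4KO_BRAF against BRAF to 1069 (main 9). The last was 5 with no filter, 16 with only female libraries and 78 with sex as a term. Leaving out 1 library gave 493 to 1815, 337 to 1397 and 5 to 25 in these 3 comparisons. Where a CDX2KO_BRAF library was left out, the lone one left is assumed to vary like the other groups. With only the 2 groups compared or fewer libraries, fewer samples enter the fit, and with no filter more genes are tested; the cause of the other shifts was not tested. No scaling moved the median change of all genes by over 0.1. The planned replicate block by the numbers of the titles was not run, since columns count from 0 and titles from 1. With a replicate block on the column number instead, 2 receptors were called against BRAF, Nr1i3 and Vdr (6.9%, beside 9.77% of all genes), and the same 2 against SMAD4KO_BRAF (6.9%, beside 6.66%), where calls over all genes numbered 805. SMAD4KO_BRAF against BRAF gave 0 receptors and 10 genes. Libraries of SMAD4KO_BRAF and BRAF with the same column number deviated from their group means with correlations of -0.05 to 0.24 over genes. Those with different numbers did so with -0.33 to 0.31. The pair at 0.24, both numbered 0, also shares the male sex. Whether a number marks a shared batch was not tested. With no counts and unknown depth, no counting error could be given, which bears most on the receptors at low FPKM.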
